A study of Mus musculus with 5 samples.

Results

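The EGF receptor family and its ligands were examined as 10 genes of the deposited count table, the receptors Egfr, Erbb2, Erbb3 and Erbb4 and the ligands Tgfa, Hbegf, Areg, Btc, Ereg and Egf. They were taken by symbol from 24527 genes, and all 10 were among the 14612 genes that passed the filter on low counts. They were read in bulk RNA-seq of prostate tumors of TripleTg mice (hHGFtg:H11hMET/+:Ctnnb1L(Ex3)/+:PBCre4), with 3 castrated and 2 intact samples. In this way the effect of androgen withdrawal on these tumors could be compared within a genotype. Castration was done at 4 months of age, and tumors of castrated and intact mice were both analyzed at 8 months. All 5 samples carry a ubiquitous human HGF transgene, and a human MET transgene and stabilized β-catenin that are expressed where Cre is active under the probasin promoter, in prostatic epithelia. Castrated replicates 1 to 3 held 28015507, 18951782 and 20492061 counts, and intact replicates 1 and 2 held 21560355 and 22853501.

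EGF family ligands are made as membrane-anchored precursors, and metalloproteases such as ADAM17 and ADAM10 release them from the cell surface. Released ligand pairs the receptors into homodimers and heterodimers, which signal through the RAS/MAP kinase and PI3K/AKT cascades. EGFR binds all of the ligands examined here, ERBB2 has no known ligand and acts as a partner, ERBB3 has a weak kinase and couples to PI3K, and ERBB4 binds neuregulins and some EGF family ligands. In prostate, these receptors serve epithelial growth, and basal epithelial cells and stromal cells also express EGFR.

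Promoters of 3 ligands are shown because they belong to the genes that the comparisons below turn on. Tgfa was the most abundant ligand, Btc was the member in which castrated and intact samples did not overlap, and Areg lies in the same gene cluster as Btc on chromosome 5. Each run holds the 250 bases before the start site and the start base, from the RefSeq promoter table (build GRCm38.p6, the assembly of mm10), 5′ to 3′ on the strand of the gene. Capitals mark the start base at the end and matches to 6 motifs searched on both strands.
Areg promoter, chr5:91139349-91139599, plus strand: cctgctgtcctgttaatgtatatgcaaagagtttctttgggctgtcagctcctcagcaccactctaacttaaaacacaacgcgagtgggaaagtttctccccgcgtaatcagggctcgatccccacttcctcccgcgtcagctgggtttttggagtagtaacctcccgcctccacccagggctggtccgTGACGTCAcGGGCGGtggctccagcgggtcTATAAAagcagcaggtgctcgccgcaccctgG
Btc promoter, chr5:91402994-91403244, minus strand: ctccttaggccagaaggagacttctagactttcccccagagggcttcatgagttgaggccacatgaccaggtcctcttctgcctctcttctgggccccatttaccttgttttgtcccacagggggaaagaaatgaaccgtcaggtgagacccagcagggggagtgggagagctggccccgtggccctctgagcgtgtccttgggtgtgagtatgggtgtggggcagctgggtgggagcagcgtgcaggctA
Tgfa promoter, chr6:86194972-86195222, plus strand: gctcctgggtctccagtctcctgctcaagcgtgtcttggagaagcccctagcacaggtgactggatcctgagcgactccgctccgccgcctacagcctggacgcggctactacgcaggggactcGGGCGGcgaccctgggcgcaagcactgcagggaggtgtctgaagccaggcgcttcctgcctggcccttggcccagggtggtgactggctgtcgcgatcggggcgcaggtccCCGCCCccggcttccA

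The motifs were the TATA box TATAAA, the GC box GGGCGG, the cAMP response element TGACGTCA, the AP-1 site TGANTCA, the TCF/LEF site ATCAAAG and the androgen receptor half-site AGAACA. In the Areg promoter, TGACGTCA began 61 bases, GGGCGG 52 bases and TATAAA 31 bases before the start site. Of 32851 promoters of the same length, 1.55% held TGACGTCA, 32.7% held GGGCGG and 12.4% held TATAAA. The Tgfa promoter held GGGCGG 126 bases before the start site and, on the other strand, 15 bases before it, with no TATAAA. None of the 6 motifs was in the Btc window. TGANTCA (6.75% of promoters), ATCAAAG (3.21%) and AGAACA (16.1%) were in none of the 3 windows. These matches describe letters only, and no binding was measured.

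The samples were first compared with markers of the cell types a prostate tumor can hold. Luminal epithelial markers (10 genes, led by Krt8, a luminal keratin) were present in all samples, with summed CPM (counts relative to library totals that edgeR's TMM factors had scaled) of 4602, 4263 and 4906 in castrated replicates 1 to 3 and 6781 and 4241 in intact replicates 1 and 2. Androgen-dependent secretory markers (7 genes) separated the intact samples from each other. Their summed CPM was 23.1, 6.76 and 6.19 in castrated replicates, 5.20 in intact replicate 1 and 2224 in intact replicate 2. Tgm4, a prostate transglutaminase and the most abundant of them, had 28976 counts in intact replicate 2 and 5 in intact replicate 1, and Msmb was at 0 in all 5 samples. Intact replicate 1 therefore held as few counts of these secretory genes as castrated samples, and its log2 CPM across genes correlated at 0.922, 0.875 and 0.826 with castrated replicates 1 to 3 and at 0.848 with intact replicate 2. For members whose value rests on a sample, the value without it is given. In bulk tissue, fewer cells of a type and less RNA per cell cannot be told apart.

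**Figure D1:**
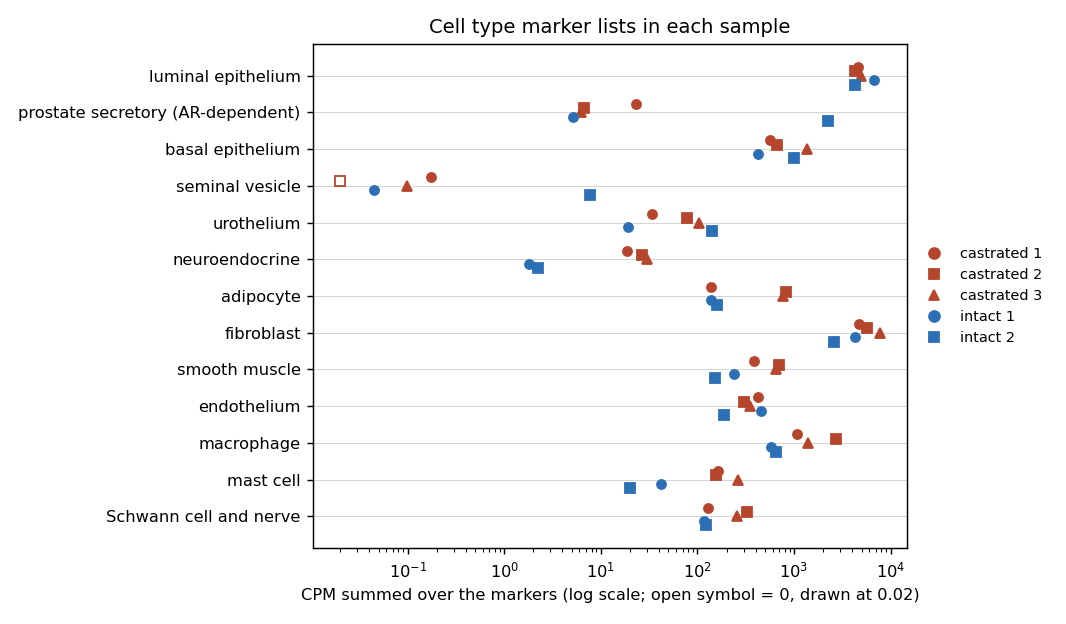
Summed CPM (x axis, log scale) of 13 cell type marker lists (y axis) in each sample, with color for castrated or intact and symbol for the replicate. The secretory list reached 2224 CPM in intact replicate 2 and lay between 5.20 and 23.1 CPM in the other samples.

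No receptor or ligand passed the test between castrated and intact samples. With thresholds of 0.05 for the Benjamini-Hochberg adjusted p of edgeR's quasi-likelihood fit and of 1 for the size of the log2 fold change, 0 of 10 members and 0 of 14612 genes (0%) were called. With the same thresholds on the unadjusted p, 0 of 10 members passed, against 10.9% of all genes tested, with 7.66% up and 3.26% down after castration. Single samples decided this count for 3 members besides Btc. Without intact replicate 1, Erbb3 and Egf passed at unadjusted p values of 0.00151 and 0.0242 in edgeR's quasi-likelihood fit (adjusted p = 0.121 and 0.171), and without castrated replicate 1 Areg passed at 0.0309 (adjusted p = 0.262). DESeq2, edgeR's likelihood ratio test and limma voom also called 0 of 10 members after adjustment, while they called 989, 369 and 0 of all genes. Mean levels were lower in castrated samples for 8 of 10 members, against 52.1% of all genes. The median log2 fold change was -0.47 over the receptors and -1.09 over the ligands, and -0.03 over all genes tested. Without intact replicate 2 the receptor median turned to 0.47 and 6 of 10 members were lower, and without intact replicate 1 the receptor median was -1.09 and the ligand median -0.35. Without castrated replicate 1 the receptor median was -0.06, and without castrated replicate 3 it was -0.75. Castrated and intact samples did not overlap for 1 of 10 members, Btc, a smaller share than the 33.1% among all genes tested. With 3 against 2 samples the intervals were wide, and for all 10 members they reached past a log2 fold change of 1 or -1, for Hbegf, Tgfa and Erbb4 past both.

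Stromal and immune markers were read beside these results. At the unadjusted p with the fold change threshold, 8 of 9 macrophage, 6 of 7 smooth muscle, 6 of 11 adipocyte and 5 of 9 fibroblast markers were higher in castrated samples, where 7.66% of all genes were. The same held for 1 of 7 endothelial, 1 of 6 neutrophil and 0 of 5 T cell markers, and 0 genes of these lists passed adjustment in edgeR's quasi-likelihood test. Macrophage markers summed to 1079, 2704 and 1379 CPM in castrated replicates against 578 and 651 CPM in intact ones. Cd68, a lysosomal protein, led them over all samples, though not in castrated replicate 1 or the intact samples. Smooth muscle markers, led by Acta2, summed to 387, 694 and 652 CPM against 238 and 151 CPM. Adipocyte markers summed to 137, 833 and 768 CPM against 137 and 157 CPM, so castrated replicate 1 lay at the level of the intact samples. Fabp4, a fatty acid binding protein, led them over all samples, though again not in castrated replicate 1 or the intact samples. Neutrophil markers, led by S100a9, summed to 175, 155 and 102 CPM against 86.8 and 122 CPM, and skeletal muscle markers, led by Mylpf, to 4.12, 4.29 and 5.41 CPM against 4.44 and 3.07 CPM. No marker of these lists was at 0 in all samples. Luminal epithelial markers had 0 of 10 genes at that p by the same test. The part of these cells in the ligand and receptor values was not tested.

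**Figure D2:**
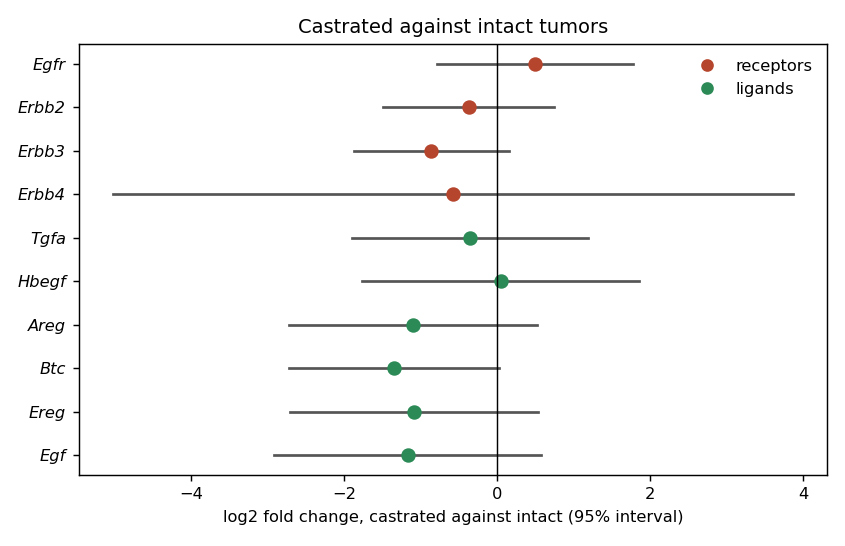
Log2 fold change of castrated against intact samples (x axis) for each receptor and ligand (y axis), with points for the estimate of edgeR and lines for its 95% interval. All 10 intervals include 0, and that of Btc, from -2.72 to 0.03, comes closest to leaving it out.

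Of the receptors, Erbb3 had the highest level per transcript length in 4 of 5 samples. Erbb3 (chr10:128567523-128589635, minus strand), the neuregulin receptor with a weak kinase, had a CPM of 100.1, 111 and 116 in castrated replicates 1 to 3, compared with 110.5 and 284 in intact replicates. Castrated samples lay close together, and intact replicate 1 lay among them, whereas intact replicate 2 was 2.84-fold above the lowest sample. The log2 fold change was -0.86 (standard error 0.40, 95% interval -1.87 to 0.16, quasi-likelihood adjusted p = 0.380 in edgeR), and it was -0.06 without intact replicate 2 and -1.36 without intact replicate 1.

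Egfr (chr11:16752203-16913907, plus strand), the receptor of all the ligands examined, was the single receptor with a higher mean in castrated samples. Its CPM was 60.6, 94.4 and 190.4 in castrated replicates and 70.8 and 93.0 in intact replicates. Castrated samples lay both below and above the intact samples, and castrated replicate 3 was the highest of all. Its log2 fold change was 0.49 (standard error 0.51, 95% interval -0.79 to 1.77, quasi-likelihood adjusted p = 0.678 in edgeR), and it was -0.08 without castrated replicate 3. Castrated replicate 3 also had the highest summed CPM of fibroblast markers, with 7760 against 4689 and 5711 in the other castrated samples, while intact replicates 1 and 2 had 4310 and 2618. Dcn, a matrix proteoglycan, was the most abundant of these 9 markers over all samples, and none was at 0. It was not the highest marker in castrated replicate 1 or in the intact samples. Without Dcn the sums were 3690, 3049 and 3934 in castrated and 3823 and 2123 in intact samples, and 5 of 9 markers were highest in castrated replicate 3. Basal epithelial markers (6 genes, led by Dst, none at 0) summed to 1356 CPM there against 425 to 996 CPM in the other samples, with 3 of 6 markers highest in castrated replicate 3 and 3 of 6 in intact replicate 2. The part of these cells in the level of Egfr was not tested.

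Erbb2 (chr11:98412484-98437716, plus strand), the shared partner receptor, had a CPM of 44.5, 70.1 and 86.9 in castrated and 53.3 and 120.4 in intact samples. The groups overlapped, with intact replicate 1 second lowest and intact replicate 2 highest. The log2 fold change was -0.37 (standard error 0.44, 95% interval -1.49 to 0.75, quasi-likelihood adjusted p = 0.721 in edgeR) and turned to 0.29 without intact replicate 2. Erbb4 (chr1:68032187-69108059, minus strand), a second neuregulin receptor, was nearly absent in a pair of samples. It had 2, 38 and 73 counts in castrated replicates and 1 and 119 counts in intact replicates, or a CPM of 0.0698, 2.04 and 3.56 against 0.0448 and 5.53. The exact Poisson 95% intervals, which cover counting error only, were 0.00845 to 0.252 in castrated replicate 1 and 0.00113 to 0.250 in intact replicate 1, below the interval of each other sample. The difference within each group thus exceeded that between the group means, with an estimate of -0.57 on the log2 scale (standard error 1.76, quasi-likelihood adjusted p = 0.902 in edgeR) that turned to 5.18 without intact replicate 2. In intact replicate 2, where Erbb2, Erbb3 and Erbb4 were highest, the secretory markers were at 2224 CPM, urothelial markers (4 genes, none at 0) at 142 CPM, of which Upk1b made up 126.9 CPM, squamous markers (7 genes, led by Krt6a, none at 0) at 166 CPM against 29.0 to 83.1 CPM in the other samples, and seminal vesicle markers (7 genes, led by Svs4) at 7.62 CPM. The part of these cells in the receptor levels was not tested.

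**Figure D3:**
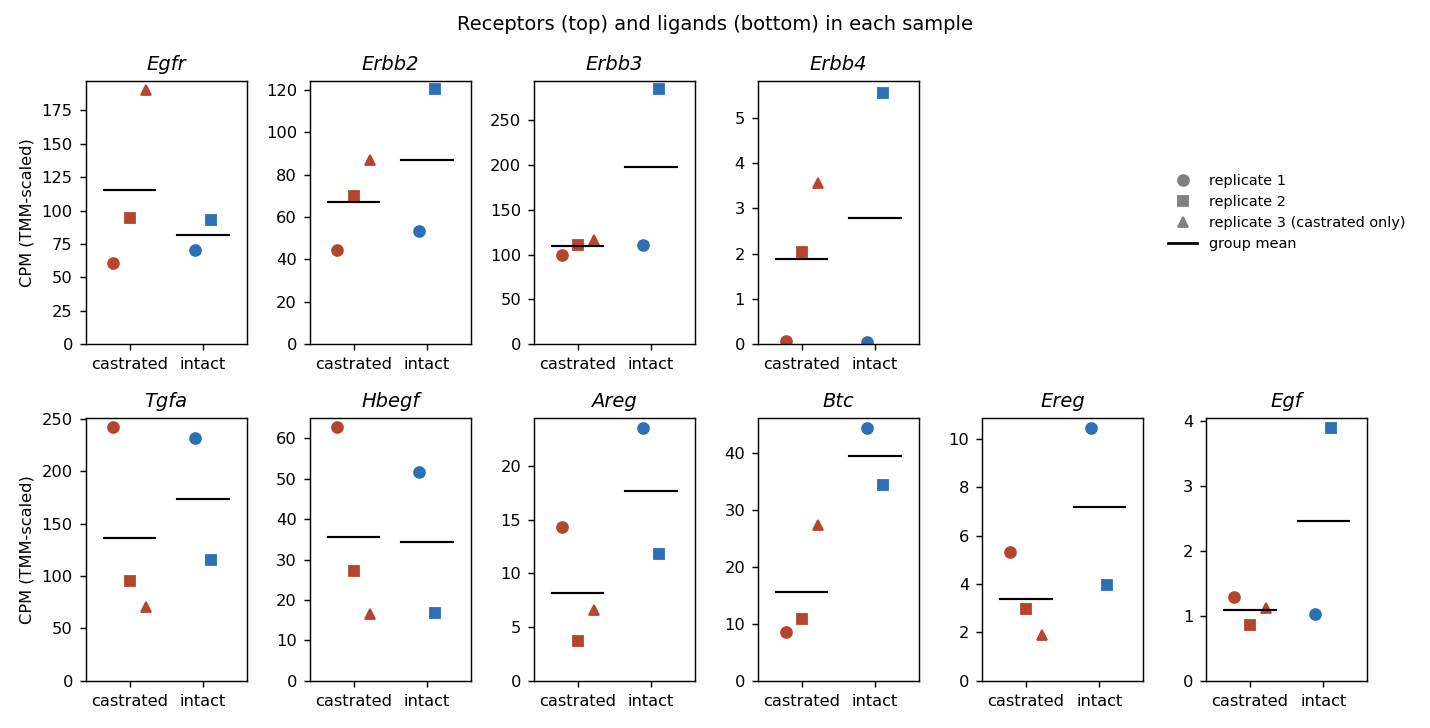
CPM (y axis, linear, from 0) of each receptor (top) and ligand (bottom) in castrated and intact samples, with a symbol for each replicate and a line at the group mean. The circles of replicate 1 of both groups are the lowest points of each receptor and the highest of Tgfa, Hbegf, Areg and Ereg.

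Ligands were led by Tgfa (chr6:86195227-86275743, plus strand), whose product transforming growth factor α binds EGFR alone. Its CPM was 242, 95.4 and 70.3 in castrated replicates and 232 and 115 in intact replicates. Replicate 1 of each group had more than the 3 other samples, and the groups overlapped. On the log2 scale, the difference of Tgfa was -0.35 (standard error 0.61, 95% interval -1.90 to 1.19, quasi-likelihood adjusted p = 0.813 in edgeR) and turned to 0.26 without intact replicate 1, whereas it was -1.07 without castrated replicate 1. Hbegf (chr18:36504927-36515805, minus strand), heparin-binding EGF-like growth factor, had a CPM of 62.8, 27.1 and 16.6 in castrated and 51.6 and 16.9 in intact samples. It showed the same high pair of samples as Tgfa and nearly equal group means, 35.5 ± 24.2 (SD, n = 3) and 34.3 ± 24.5 (SD, n = 2). Its log2 fold change was 0.05 (standard error 0.72, 95% interval -1.76 to 1.86), which turned to -0.66 without castrated replicate 1 and to -0.58 without intact replicate 2, and was 1.09 without intact replicate 1.

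Btc (chr5:91357261-91402994, minus strand), betacellulin, which binds EGFR and ERBB4, was below both intact samples in each castrated sample. Its CPM was 8.55, 10.8 and 27.3 in castrated replicates and 44.3 and 34.4 in intact replicates. Castrated replicate 3 lay nearer to the intact samples than to the other castrated samples. The means were 15.5 ± 10.2 (SD, n = 3) and 39.4 ± 7.02 (SD, n = 2), and the log2 fold change was -1.34 (standard error 0.54, 95% interval -2.72 to 0.03). This did not pass the test (unadjusted p = 0.0540, quasi-likelihood adjusted p = 0.342 in edgeR). Btc kept a negative fold change under all 17 alternative settings, from -2.03 without castrated replicate 3 to -1.05 without castrated replicate 1. Its unadjusted p was under 0.05 in 7 of these settings, and its adjusted p ranged from 0.188 to 0.681 over them. Of all genes tested, 16.1% were likewise lower in every castrated sample.

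Areg (chr5:91139599-91148432, plus strand), amphiregulin, had a CPM of 14.3, 3.75 and 6.58 in castrated and 23.5 and 11.8 in intact samples. Castrated replicate 1 lay between the intact samples, while the other castrated samples lay below both. For Areg the log2 fold change was -1.10 (standard error 0.64, 95% interval -2.72 to 0.52, quasi-likelihood adjusted p = 0.459 in edgeR), and it was -1.77 without castrated replicate 1 and -0.50 without intact replicate 1. Ereg (chr5:91074617-91093649, plus strand), epiregulin, had the same order of its 3 highest samples, with a CPM of 5.30, 2.95 and 1.90 in castrated and 10.4 and 3.95 in intact samples. The log2 fold change of Ereg was -1.08 (standard error 0.64, 95% interval -2.70 to 0.54), with a value of -0.20 without intact replicate 1. Egf (chr3:129677577-129755322, minus strand), the founding ligand of the family, was near the filter with 37, 16 and 23 counts in castrated and 23 and 84 counts in intact samples. Intact replicate 2 alone stood out, at 3.90 CPM against 0.858 to 1.29 in the other samples. The log2 fold change of Egf was -1.17 (standard error 0.69, 95% interval -2.91 to 0.57) and 0.04 without intact replicate 2. Exons of antisense genes cover 9.82% of the annotated exon bases of Egf and 3.42% of those of Ereg, and as the strand setting of the counting is not stated, reads from these bases cannot be assigned to either strand.

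The ligand genes Epgn, Ereg, Areg and Btc lie within 375.5 kb of chromosome 5, and the genes between them and within 50 kb on either side were read in the same samples, a window chosen after the values had been seen. It held 6 genes, besides 7 entries whose deposited coordinates span more than 1 Mb and which were left out. Mthfd2l, a mitochondrial folate enzyme gene next to Epgn, had a CPM of 14.4, 12.4 and 9.55 in castrated and 27.8 and 17.8 in intact samples. The log2 fold change of Mthfd2l was -0.91 (unadjusted p = 0.0382, quasi-likelihood adjusted p = 0.317 in edgeR). Its groups did not overlap, where 16.1% of all genes tested were lower in every castrated sample. Gm19619, between Areg and Btc, had at most 8 counts in a sample. The 4 tested genes of the cluster (Mthfd2l, Ereg, Areg and Btc) were all highest in intact replicate 1, a pattern whose share among all genes was not counted. They differed in castrated replicate 3, where Btc had its highest castrated value and Ereg and Mthfd2l their lowest of all 5 samples.

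Across members, samples were split in a way that did not follow castration. In CPM, all 4 receptors had their lowest 2 levels in castrated replicate 1 and intact replicate 1, a pattern of 13.7% of all genes tested. In contrast, 4 of 6 ligands (Tgfa, Hbegf, Areg and Ereg) had their highest 2 levels in the same samples, against 14.3% of all genes tested. Per transcript length (TPM), Egfr and Erbb3 were exceptions. For Egfr, intact replicate 2, with 26.9, lay just below intact replicate 1, with 27.3. For Erbb3, castrated replicates 2 and 3, with 44.0 and 45.0, lay just below intact replicate 1, with 45.7. Per transcript length, the summed level of the 6 ligands was 226, 95.1 and 88.3 TPM (counts per transcript length, scaled to 1 total in all samples) in castrated replicates and 273 and 104 TPM in intact replicates. That of the 4 receptors was 82.6, 113 and 155 TPM in castrated and 99.4 and 161 TPM in intact samples. The ratio of ligand to receptor TPM was thus 2.74 in castrated replicate 1 and also 2.74 in intact replicate 1, and it was 0.844 in castrated replicate 2, 0.570 in castrated replicate 3 and 0.645 in intact replicate 2. These samples were set apart by their values, so no test was made between them. Of the marker lists, T cell markers (5 genes, led by Lck, none at 0) summed to 12.9 and 11.1 CPM in this pair against 24.2 to 39.1 CPM in the other samples. Of these genes 4 of 5, without Lck, had their lowest 2 values there, against 13.7% of all genes tested. Urothelial, basal and adipocyte markers also had their lowest 2 sums in the pair. Of their single genes, the same held for 1 of 4, 2 of 6 and 2 of 11, against the same 13.7%. Urothelial markers summed to 33.4 and 19.1 CPM in the pair against 77.9 to 142 CPM, basal markers to 565 and 425 CPM against 664 to 1356 CPM, and adipocyte markers to 137 and 137 CPM against 157 to 833 CPM. Endothelial markers (7 genes, led by Cdh5, none at 0) had their highest 2 sums in the pair, 427 and 456 CPM against 187 to 353 CPM. Without Cdh5, however, intact replicate 1, at 229 CPM, lay below castrated replicate 3, at 292 CPM. Of single endothelial genes, 1 of 7 had its highest 2 values in the pair. The same held for 4 of 10 luminal and 4 of 9 fibroblast markers, against 14.3% of all genes, although the sums of these 2 lists were not highest there. Of luminal markers, 8 of 10 were highest in intact replicate 1, a pattern whose share among all genes was not counted. The part of these cells in the ligand and receptor levels was not tested.

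Within a sample, levels per length gave a stable order at both ends and not in between. Tgfa was the highest ligand in all 5 samples, with 35.9 to 126 TPM and between 40.6% and 55.5% of the ligand total. Egf was the lowest ligand in all 5, with at most 1.52 TPM, followed by Ereg with 1.07 to 6.24 TPM. Hbegf was second in castrated replicates 1 and 2 and intact replicate 1, with 62.3, 27.1 and 53.8 TPM. Btc took that place in castrated replicate 3 and intact replicate 2, with 22.0 and 22.2 TPM, although it stood at 6.99 TPM in castrated replicate 1. Areg lay between 7.35 and 48.0 TPM and changed places with Hbegf and Btc, so these 3 ligands had no order beyond the spread between samples. Erbb3 was the highest receptor in 4 samples, with 39.4 to 88.3 TPM, and in castrated replicate 3 it was exceeded by Egfr, with 45.0 against 68.8 TPM. Egfr and Erbb2 were close in castrated replicates 1 and 2 and in intact replicate 1, where they differed by 22.2 against 21.0, 34.9 against 33.4 and 27.3 against 26.5 TPM. In castrated replicate 3 Egfr was above Erbb2, with 68.8 against 40.5 TPM, and in intact replicate 2 it was below, with 26.9 against 44.9 TPM. Erbb4 stayed below 1 TPM in all samples.

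**Figure D4:**
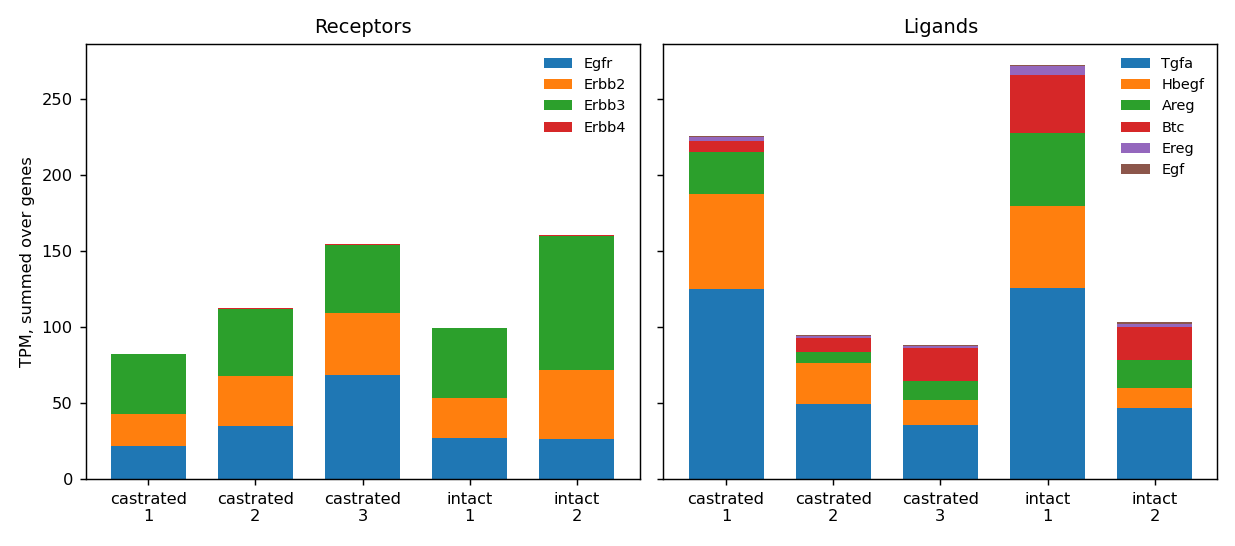
TPM summed over the receptors (left) and the ligands (right) in each sample (x axis), with a color for each gene. Ligands sum to 226 and 273 TPM in castrated replicate 1 and intact replicate 1 and to between 88.3 and 104 TPM in the other samples.

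The remaining ErbB ligands were rare. Nrg1, neuregulin 1, which binds ERBB3 and ERBB4, had a CPM of 4.22, 4.56 and 7.02 in castrated and 11.2 and 7.20 in intact samples. The log2 fold change of Nrg1 was -0.80 (standard error 0.41, quasi-likelihood adjusted p = 0.409 in edgeR). Its groups did not overlap, where 16.1% of all genes tested were lower in every castrated sample. Nrg2 and Nrg4 were lowest in intact replicate 1, with 3 and 5 counts, and had log2 fold changes of 0.14 (standard error 1.19) and 1.34 (standard error 1.03). Epgn, epigen, had 4 to 7 counts in 4 samples and 19 in intact replicate 2, and Nrg3 had at most 4 counts, so neither passed the filter.

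Genes of ligand shedding and trafficking, taken as 1 list, had a lower mean in castrated samples more often than a higher one. Of 10 genes tested, 7 had a negative and 3 a positive fold change, where 52.1% of all genes had a negative one. Proteases went both ways, with Adam9, Adam10 and Adam12 negative and Adam15, Adam17 and Rhbdl2 positive. The trafficking genes Rhbdf1, Rhbdf2, Cnih1 and Cnih4 were all negative. The median log2 fold change was -0.24, against -0.03 over all genes. This median turned to 0.17 without intact replicate 1. An unadjusted p under 0.05 was reached by 2 of 10, both lower, where 6.28% of all genes were lower and 8.74% higher at that p, and 0 passed adjustment. Rhbdf1, an iRhom protein that carries ADAM17 to the cell surface, had a CPM of 40.9, 44.9 and 49.6 in castrated and 63.0 and 83.1 in intact samples (log2 fold change -0.69, standard error 0.21, quasi-likelihood adjusted p = 0.297 in edgeR). Cnih4, a cargo receptor for export from the endoplasmic reticulum, had 41.9, 47.1 and 43.6 CPM in castrated and 55.9 and 72.6 CPM in intact samples (log2 fold change -0.54, standard error 0.20, quasi-likelihood adjusted p = 0.322 in edgeR). In both genes the groups did not overlap, where 16.1% of all genes were lower in every castrated sample. Adam17 went the other way, also without overlap, where 17.0% of all genes were higher. Its CPM was 88.2, 114.5 and 100.5 in castrated and 75.1 and 80.1 in intact samples (log2 fold change 0.38, standard error 0.19, quasi-likelihood adjusted p = 0.405 in edgeR). Adam10, the most abundant of the 10, had a CPM of 293 to 481 in castrated samples and 611 and 444 in intact samples, with overlap.

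Genes that limit ErbB receptors or act directly after them showed no shared direction. Of 16 inhibitors and turnover genes, 9 had a positive and 7 a negative fold change (median 0.04), and 0 had an unadjusted p under 0.05 in edgeR's quasi-likelihood fit. Of all genes tested, 52.1% had a negative fold change and 15.0% such a p. The smallest p in this list, 0.0518, was that of Socs4, a member of the suppressor of cytokine signaling family that acts on EGFR, with 74.8, 80.9 and 61.1 CPM in castrated and 96.9 and 106.7 CPM in intact samples (log2 fold change -0.49, standard error 0.20, quasi-likelihood adjusted p = 0.337 in edgeR). Of 26 adaptors and effectors, 11 had a positive and 15 a negative fold change (median -0.05), and 0 had an unadjusted p under 0.05, against the same 52.1% and 15.0% of all genes. Grb2, the adaptor that links receptors to SOS and RAS, had the smallest p of the list, 0.0566. Its CPM was 128, 198 and 157 in castrated and 117 and 87.1 in intact samples (log2 fold change 0.65, standard error 0.27, quasi-likelihood adjusted p = 0.344 in edgeR). All castrated samples of Grb2 were above both intact samples. This held for 2 of the 26 genes, against 17.0% of all genes tested, and 0 of 26 were lower without overlap, against 16.1%. After adjustment 0 genes of either list passed with edgeR's quasi-likelihood test.

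**Figure D5:**
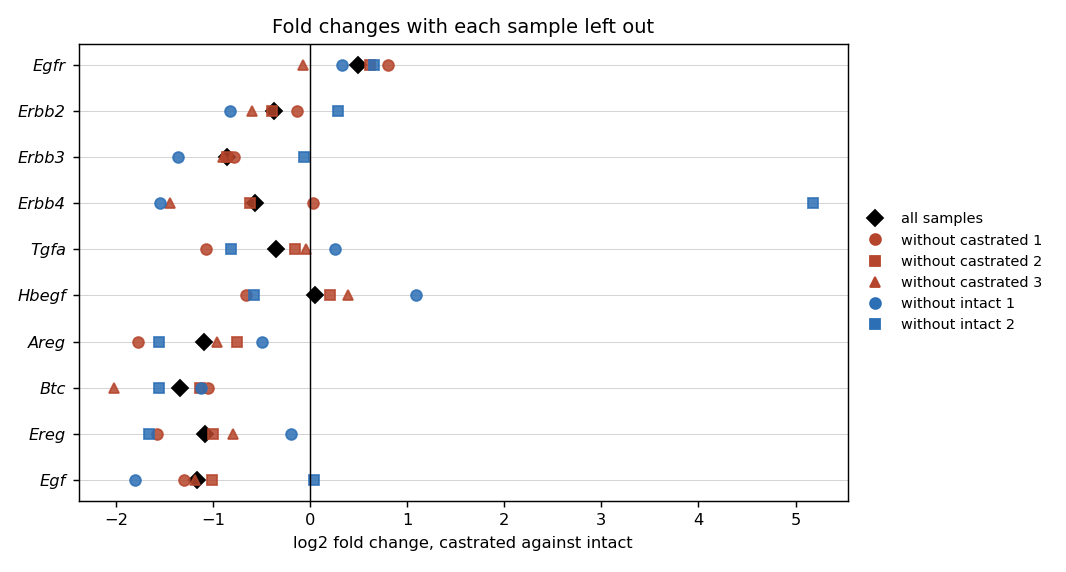
Log2 fold change of castrated against intact samples (x axis) for each receptor and ligand (y axis), from all samples (diamonds) and with each sample left out (colored symbols). Btc, Areg, Ereg and Erbb3 stay below 0 in all 5 fits, whereas Egfr, Erbb2, Erbb4, Tgfa, Hbegf and Egf cross 0.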

How the data were processed

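All 5 bulk RNA-seq libraries of TripleTg prostate tumors were used, 3 castrated and 2 intact by their titles. The authors depleted ribosomal RNA, used Trimmomatic (0.39) on paired-end reads and STAR (2.7.9) on mm10, and deposited raw counts per gene from HTSeq (2.0.2), with a gene length used here for TPM. Whether counting used strand is not given in the sources used here. The labels give each library a code of its own without saying whether it names an animal, and p-values measure the spread between these samples.

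The filter kept genes whose CPM was above 1 in 2 or more samples, and edgeR's quasi-likelihood test was run on them with TMM scaling and Benjamini-Hochberg adjustment over all genes tested (edgeR 4.0.16 in R 4.3.3). DESeq2 1.42.0 and limma 3.58.1 served for alternatives. Counts were used although the methods of the study name TPM, which was an alternative. Printed CPM use TMM-scaled library totals. Each standard error is the size of the log2 fold change over the root of the F statistic. The fit was tested on simulated data. Replicates differed by far more than counting noise (chi-square of at least 133 per gene).

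Named genes were all members, the other ErbB ligands, and of each other pathway list the genes at an unadjusted p under 0.05 or else the gene with the smallest p. Of each marker list, those at 0 were named, and the gene most abundant by CPM over all samples, which need not lead in each sample. Adam9, Adam10, Adam12, Adam15, Adam17, Rhbdl2, Rhbdf2, Cnih1, Mthfd2l and Gm19619 were added after their values were seen. Members and lists were chosen with earlier results of these data known. Promoter sequences were in the RefSeq table for 7 of 10 members.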

Additional observations from a re-analysis of the deposited data

How the results depend on the processing

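Results were recomputed under 16 alternative settings and, added after seeing the data, with counts scaled to the luminal epithelial markers. No member passed the adjusted threshold in any of them, and Btc, Areg, Ereg and Erbb3 kept their direction in all. For values that changed, the cause was not tested.

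The count of 0 genes called was 989 with DESeq2 (703 higher, 286 lower) and 369 (276 higher, 93 lower) with the likelihood ratio test, and between 0 and 1 when a sample was left out. Genes at an unadjusted p numbered 1596, and 975 with the replicate block, and between 898 (without castrated replicate 3) and 2588 (without intact replicate 1) when a sample was left out. Same-numbered samples were not taken as pairs, as no label ties them, and with 2 numbers their deviations from group means correlated at 0.151 (replicate 1) and -0.0450 (replicate 2), which does not settle it. Under this replicate block the log2 fold change of Egfr reversed to -0.10 and that of Btc was -2.02. Limma voom reversed Erbb4 to 0.27.

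With each sample left out, log2 fold changes ranged from -0.079 to 0.80 for Egfr, -0.82 to 0.29 for Erbb2, -1.54 to 5.18 for Erbb4, -1.81 to 0.044 for Egf, -0.66 to 1.09 for Hbegf and -1.07 to 0.26 for Tgfa, and the median of the other ErbB ligands from -0.43 to 3.28, a list of 3 tested genes. List medians near 0 changed sign. They ranged from -0.45 to 0.17 for ligand shedding and trafficking (0.03 with the replicate block). The range was -0.19 to 0.20 for inhibitors and -0.07 to 0.25 for adaptors (0.04 with the replicate block).

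Scaling to luminal epithelial markers moved the median of all genes to 0.17, and members had log2 fold changes from -1.15 to 0.61. With a CPM above 1 in all samples, 8 members were tested, without Egf and Erbb4. For genes with few counts (Erbb4, Egf, Epgn and Nrg3), depth limits the comparison.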

Other observations

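In each castrated sample, mast cell genes lay above both intact samples, where 17.0% of all genes tested did. The summed CPM of 5 markers was 163.5, 156 and 260 in castrated replicates and 41.4 and 19.8 in intact replicates, and all 5 had an unadjusted p under 0.05 with a log2 fold change above 1, where 7.66% of all genes did. Kit, the stem cell factor receptor and the most abundant of them, had a CPM of 58.5, 68.4 and 65.0 in castrated and 32.8 and 13.3 in intact samples. None of the 5 passed adjustment with edgeR's quasi-likelihood test.

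Neuroendocrine markers had a summed CPM of 18.8, 26.7 and 30.1 in castrated and 1.79 and 2.23 in intact samples, led by Chgb, a granin. Of 5 tested, all had higher castrated values without overlap, against 17.0% of all genes, and 0 passed adjustment with edgeR's quasi-likelihood test, against 4 at an unadjusted p under 0.05 with a log2 fold change above 1, where 7.66% of all genes were. Among basal markers, Krt15, a basal keratin chosen after its values were seen, was the one whose groups did not overlap, with 115, 171 and 373 CPM in castrated and 27.1 and 57.1 CPM in intact samples, while Trp63, a basal transcription factor also chosen after its values were seen, ranged from 6.09 CPM in intact replicate 1 to 101 CPM in intact replicate 2.

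Schwann cell markers had a summed CPM of 129.5, 328 and 259 in castrated and 118 and 122 in intact samples. Over all samples Mbp, a myelin protein, led these markers, though not in the castrated samples. The part of Schwann cells in the level of Erbb3 was not tested.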
